A study of Homo sapiens with 26 samples.

Results

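The comparison described here set CF cells against WT cells of the human bronchial epithelial line 16HBE, both in normal glucose. It used 12 of the 26 samples of the series, 6 per line, chosen by their labels alone and not by any measured value. The WT cells were 16HBE14o- with WT CFTR, and the CF cells were 16HBEge, a gene-edited derivative whose genotype is DeltaF508 CFTR. All 12 samples came from Transwells, porous supports on which epithelial cells polarize, after 7 days in medium with 5.5 mM glucose renewed daily. Each sample pooled 2 Transwells seeded with 250000 cells per well, and poly-A RNA was sequenced in bulk. An edited line can descend from 1 clone, so differences between these lines need not all follow from the CFTR genotype. The labels do not say that samples of a line were separate cultures, so p-values reflect only how these samples varied. A further 11 samples, 6 of CF and 5 of WT cells kept in high glucose (17.5 mM), gave the same line contrast in other libraries and are used below only to set beside it.

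CFTR is a channel for chloride and bicarbonate on the apical side of airway epithelium. The DeltaF508 protein folds poorly, is held back in the endoplasmic reticulum and is largely degraded, so that airway surface liquid and mucus are poorly hydrated in cystic fibrosis. Airway epithelial cells also form the barrier of the airway through tight and adherens junctions and release cytokines, mucins, antimicrobial proteins and proteases into the lumen.

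The 12 libraries held 14658319 to 20413839 counts, and 32488 of the 58735 genes listed had a read in at least 1 of them. On the first principal component (46.6% of the variance) the lines lay apart with no overlap. On the second (19.2%) the samples numbered 1 to 3 lay apart from those numbered 4 to 6 in both lines; the labels do not say what the numbers stand for, so they are called number sets here, and the fits below have a term for them unless stated. Ribosomal protein genes held 4.2 ± 0.532% (SD) of counts in CF samples 1 to 3 and 3.3 ± 0.256% in CF samples 4 to 6, against 3.57 ± 0.366% and 2.69 ± 0.0808% in WT. The part of this shift in the results was not tested.

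CFTR itself was read at 664 to 714 CPM in WT samples and 674 to 869 CPM in CF samples, medians 698 and 745. The ranges overlapped, and the difference of 0.12 ± 0.052 (log2 CF over WT with its standard error) did not pass the test (adjusted p = 0.0938). CPM are counts per 1000000 counts after TMM scaling, ranges run from the lowest to the highest of a line's 6 samples, and adjusted p-values are from edgeR's quasi-likelihood test with Benjamini-Hochberg adjustment over all genes tested. Counts per gene do not show a small deletion, so the CFTR level does not check the genotype label.

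Both lines carried the epithelial markers. The summed level of 10 epithelial markers was 6260 to 7210 CPM in WT and 6990 to 7770 CPM in CF. The keratins KRT8 and KRT18 of simple epithelia did not pass the test (0.0034 ± 0.059 and -0.024 ± 0.051), while CDH1, which encodes E-cadherin, rose by 0.27 ± 0.052 (adjusted p = 0.000173) and EPCAM, an epithelial adhesion molecule, by 0.22 ± 0.056 (adjusted p = 0.00312). EPCAM was not called without the term for the number set (adjusted p = 0.165) or in samples 1 to 3 alone (0.11, adjusted p = 0.353). None of 10 club and goblet cell markers was read often enough to be tested, and BPIFA1, BPIFB1, MUC5AC and TFF3 had no read in any of the 12 samples. Summed leukocyte markers reached at most 1.53 CPM, with PTPRC and CD3E below 0.5 CPM in all samples. Of 7 endothelial markers the 2 tested were called higher, KDR with means of 8.79 ± 1.26 CPM in WT and 24.2 ± 12 CPM in CF and CDH5 with 14.4 ± 1.36 CPM in WT and 23.6 ± 2.87 CPM in CF. Their list summed to 20.1 to 25.8 CPM in WT and 32.4 to 64.5 CPM in CF, and PECAM1, CLDN5, EMCN and TEK were below 0.5 CPM in all 12 samples. Of 8 fibroblast markers 2 were tested and COL1A1 fell (35 ± 5.96 CPM in WT and 20.1 ± 4.13 CPM in CF), with a summed level of 27.2 to 44.3 CPM in WT and 16.6 to 26.4 CPM in CF. COL3A1, DCN, LUM, PDGFRA and POSTN were below 0.5 CPM throughout. Of 9 ciliated cell markers tested 1 rose, CAPS (5.57 ± 0.652 CPM in WT and 13.3 ± 2.3 CPM in CF), and 2 fell, and the list summed to 83.9 to 98 CPM in WT and 75.1 to 100 CPM in CF. The part of these genes in the results was not tested. VIM, the mesenchymal intermediate filament gene, had 2 to 10 reads in WT samples and 0 to 7 in CF samples and was not tested. In bulk RNA, fewer cells of a type and less RNA per cell cannot be told apart.

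Of 15394 genes tested, 5023 differed between the lines at an adjusted p under 0.05 (called below), which is 32.6% of genes. In CF cells 2488 genes were higher (16.2%) and 2535 lower (16.5%). Each count of list members below is to be read beside these shares. Of the called genes, 641 differed at least 2-fold (4.16% of genes tested), 245 of them higher and 396 lower. For 2052 genes (13.3%) the 6 values of one line all lay beyond the 6 values of the other. Scaling by library totals alone, in place of TMM, moved the split to 1767 higher and 3485 lower, with the median of all genes at -0.059 log2 against 0.0033 with TMM.

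In high glucose the same contrast called 5357 of 15579 genes (34.4%). The log2 differences of 15242 genes tested at both glucose levels had r = 0.90 and rho = 0.708 across genes, which are not independent of each other. Genes called in the same direction at both levels numbered 3431, which is 68.6% of those called in normal and 64.7% of those called in high glucose among the genes tested at both, and 23 were called in opposite directions. A test of the difference between the 2 contrasts called 146 of 16338 genes (0.894%). Without the term for the number set it called 6, and leaving out single samples gave 61 (without WT sample 3 of high glucose) to 326 (without CF sample 3 of normal glucose).

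**Figure D1:**
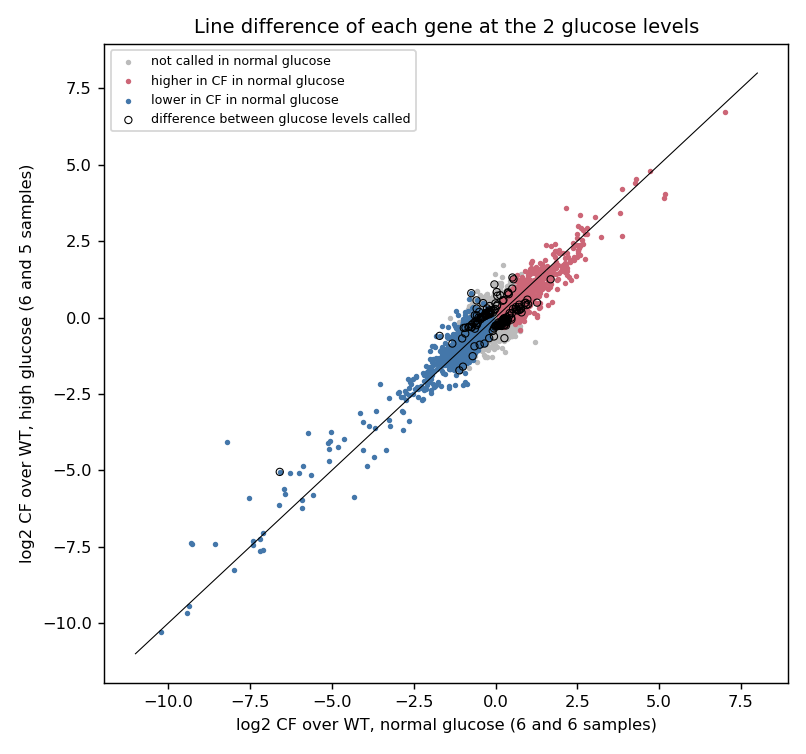
Log2 CF over WT of each gene in normal glucose (x axis, 6 and 6 samples) against high glucose (y axis, 6 and 5 samples); colours show the call in normal glucose, open circles the 146 genes whose difference between glucose levels was called, and the line marks equal values. Most genes called in normal glucose lie along the line of equal values.

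The largest rise in CF cells was that of MAN1A1, which was nearly silent in WT cells. MAN1A1, a Golgi mannosidase that trims N-linked glycans (chr6:119177209-119349761, hg38), was read at 0 to 0.297 CPM in WT samples and 10.5 to 13.1 CPM in CF samples, medians 0.0544 and 11.5. Every CF sample lay far above every WT sample (log2 difference 7.02 ± 0.26, adjusted p = 7.9e-17), and the log2 difference in high glucose was 6.74. PTPRG, a receptor tyrosine phosphatase (chr3:61561569-62297613), was read at 1.87 to 3.08 CPM in WT samples and 59 to 74.3 CPM in CF samples, medians 2.62 and 65.6, which is 26.3-fold (log2 difference 4.72 ± 0.098, adjusted p = 1.43e-22). DAAM2, a formin, was read at 0.217 to 0.765 CPM in WT samples and 7.7 to 11.1 CPM in CF samples, medians 0.387 and 8.55 (log2 difference 4.28 ± 0.20, adjusted p = 5.47e-15). In both genes the lowest CF sample exceeded the highest WT sample several times over.

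PTGS2, the inducible cyclooxygenase of prostaglandin synthesis (chr1:186671791-186680427), was read at 0.643 to 1.51 CPM in WT samples and 15.4 to 24.1 CPM in CF samples, medians 1.14 and 21.1. The 2 groups did not overlap (log2 difference 4.26 ± 0.16, adjusted p = 2.18e-16). GABRP, the pi subunit of the GABA-A receptor, a ligand-gated chloride channel, was read at 5.33 to 8.05 CPM in WT samples and 41.1 to 55.4 CPM in CF samples, medians 7.33 and 49.7 (log2 difference 2.80 ± 0.097, adjusted p = 4.41e-17). KCNK3, a potassium channel of the K2P family, was read at 3.93 to 5.7 CPM in WT samples and 22.6 to 34.1 CPM in CF samples, medians 4.33 and 28 (log2 difference 2.57 ± 0.12, adjusted p = 4.79e-15).

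Also among the 15 genes with the largest rise were PKHD1, SLC28A3, SLC12A8, PPP4R4, BST1, S100P, POU4F1 and PIK3AP1, with log2 differences from 2.40 to 3.05. PKHD1 encodes fibrocystin, a protein of primary cilia, and was read at 0.45 to 1.31 CPM in WT samples and 6.42 to 8.72 CPM in CF samples, medians 0.918 and 7.61. SLC28A3 carries nucleosides into cells and was read at 0.759 to 1.35 CPM in WT samples and 4.34 to 8.96 CPM in CF samples, medians 0.921 and 6.5. S100P, a calcium-binding protein, was read at 6.45 to 11.9 CPM in WT samples and 45.4 to 51.6 CPM in CF samples, medians 8.59 and 48.7. BST1 is an ectoenzyme of NAD metabolism and POU4F1 a homeodomain transcription factor. The choice of these 15 asked for lines without overlap. Each was also called higher in high glucose.

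**Figure D2:**
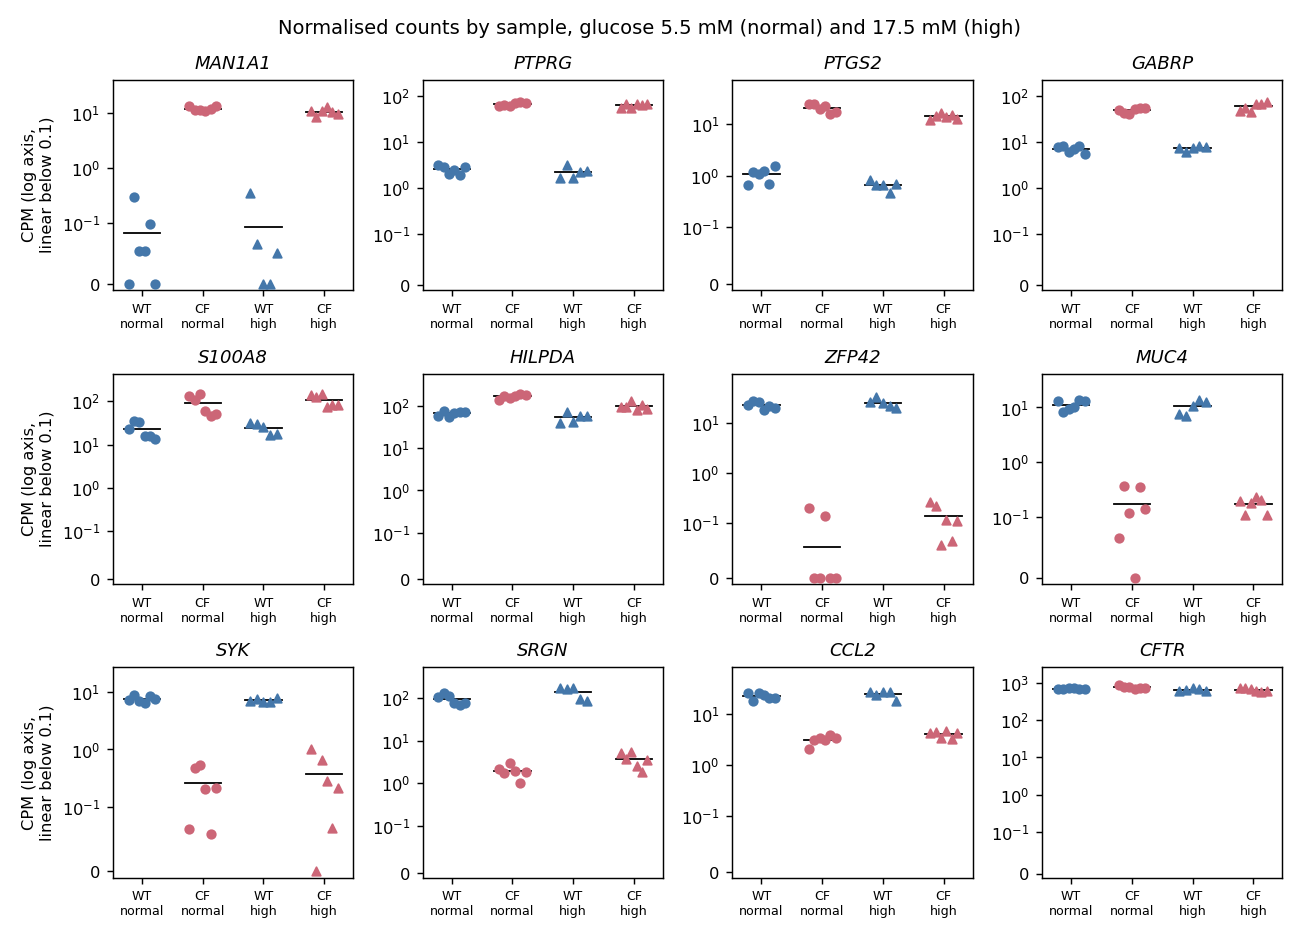
CPM by sample (y axis, logarithmic above 0.1 CPM and linear below) of 12 genes in WT (blue) and CF (red) cells in normal (circles) and high (triangles) glucose; bars are group means. MAN1A1, PTPRG, PTGS2, GABRP, S100A8 and HILPDA lie higher in CF, ZFP42, MUC4, SYK, SRGN and CCL2 lower, and CFTR overlaps between the lines.

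The largest falls left some genes without a read in CF cells. TSPYL5, of the nucleosome assembly protein family, had 955 reads over the WT samples, a median of 8.6 CPM (7.13 to 10.3), and 0 over the 6 CF samples. With a floor of 3 reads over the group it was at least 276-fold lower in CF. ZFP42, a zinc finger protein known from stem cells, was read at 18.2 to 27.5 CPM in WT samples and 0 to 0.199 CPM in CF samples, medians 22.6 and 0, with no read in most CF samples (log2 difference -8.56 ± 0.24, adjusted p = 3.88e-19). TCIM, a regulator of transcription on chromosome 8, was read at 13.7 to 17.8 CPM in WT samples and 0.0606 to 0.284 CPM in CF samples, medians 14.5 and 0.155 (log2 difference -6.59 ± 0.20, adjusted p = 6.79e-19). The fitted log2 values of genes this low in CF depend on the small count that the fit adds and are not bounds.

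MUC4, a membrane-bound mucin of the airway surface, was read at 8.19 to 13.5 CPM in WT samples and 0 to 0.363 CPM in CF samples, medians 11.8 and 0.13, and no CF sample came near a WT sample (log2 difference -5.90 ± 0.27, adjusted p = 1.51e-14). SRGN, the core protein of the proteoglycan serglycin, was read at 69.5 to 129 CPM in WT samples and 1 to 2.97 CPM in CF samples, medians 93.5 and 1.89 (log2 difference -5.64 ± 0.11, adjusted p = 1.09e-22). SYK, a tyrosine kinase known from immune receptor signalling, was read at 6.39 to 8.85 CPM in WT samples and 0.0589 to 0.535 CPM in CF samples, medians 7.31 and 0.211 (log2 difference -4.80 ± 0.25, adjusted p = 5.61e-14). All 3 lay lower by the same order of size in high glucose, at -5.96, -5.14 and -4.24.

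CCL2, the chemokine that draws monocytes, was read at 18 to 26.2 CPM in WT samples and 2.05 to 3.83 CPM in CF samples, medians 22.2 and 3.19, without overlap (log2 difference -2.84 ± 0.13, adjusted p = 1.82e-15). CERS6, a ceramide synthase, was read at 19.6 to 27.2 CPM in WT samples and 1.66 to 3.63 CPM in CF samples, medians 23.2 and 2.26 (log2 difference -3.25 ± 0.13, adjusted p = 2.22e-16). ZFP28, PPP2R2B, COL22A1, STXBP6, GSTM3 and FLT4, also among the 15 genes with the largest fall, had log2 differences from -6.62 to -3.94. GSTM3 is a glutathione transferase, FLT4 the receptor VEGFR3 and PPP2R2B a regulatory subunit of protein phosphatase 2A. Lack of overlap was part of the choice of these 15 as well.

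In all, 12 tested genes had no read in any CF sample in normal glucose, and 0 had none in WT. They were AC074135.1, CNTLN, TSPYL5, ZNF135, ZNF334, ZNF43, ZNF486, ZNF493, ZNF542P, ZNF85, ZNF90 and ZSCAN18. By their names 9 of the 12 are zinc finger genes, and 9 lie on chromosome 19. In high glucose 9 of the 12 again had no CF read. ZNF43, read at a median of 4.4 CPM (3.55 to 6.95) in WT, was at least 143-fold lower, CNTLN at least 156-fold and ZSCAN18 at least 142-fold.

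Zinc finger genes of chromosome 19, a clustered family of DNA-binding repressors, were more often lower than higher. Of 223 tested, 64 fell and 6 rose, 27 fell and 0 rose at least 2-fold, and the median log2 difference was -0.14, beside 0.0033 over all genes. Chromosome 19 as a whole had 250 of 1141 genes lower, 89 higher and a median of -0.061. In high glucose the median of the whole chromosome was 0.0036. On the other chromosomes 61 of 266 zinc finger genes fell and 23 rose, with a median of -0.065. The sets were chosen after the 12 genes had been seen, and the chromosome 19 set holds 8 of them. Members are near copies of each other, so reads may be shared between them.

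Genes of the hypoxia list were mostly higher in CF cells. Of 27 tested, 17 rose and 2 fell, with a median of 0.34 log2. Apart from HIF1A and EPAS1, which encode subunits of the hypoxia-inducible factors, these genes are known from the response to low oxygen. The factors bind the core letters ACGTG or GCGTG. Shown are the 4 members with the largest rise in CF among those called higher that have a promoter entry and hold the letters upstream. They were picked by that rise and by holding the letters, so they do not stand for the list. The 100 bases printed lie upstream of the gene's start in RefSeq (GRCh38.p14), 5′ to 3′ on the gene's strand, and capitals mark ACGTG or GCGTG or their complements.
BHLHE41 (chr12:26125038-26125137, minus strand): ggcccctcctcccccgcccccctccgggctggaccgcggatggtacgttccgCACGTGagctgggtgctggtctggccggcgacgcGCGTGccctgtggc
ERO1A (chr14:52695629-52695728, minus strand): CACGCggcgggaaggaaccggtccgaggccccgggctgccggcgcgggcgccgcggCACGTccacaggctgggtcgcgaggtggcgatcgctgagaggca
ANKRD37 (chr4:185396679-185396778, plus strand): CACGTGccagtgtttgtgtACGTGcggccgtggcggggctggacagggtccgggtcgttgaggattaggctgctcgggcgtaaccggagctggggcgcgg
ADM (chr11:10304972-10305071, plus strand): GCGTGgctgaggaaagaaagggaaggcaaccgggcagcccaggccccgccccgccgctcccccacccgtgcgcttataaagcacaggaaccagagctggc
In a window of 300 bases, 250 before to 50 after the start, 18 of 21 listed genes held the letters on either strand (overlapping matches counted), as did 63.0% of the windows of 10598 tested genes. BNIP3L, HILPDA, LOXL2, NDRG1, SLC6A6 and VEGFA had no entry, so 77.8% of the list could be read and the comparison of shares is void. A match is a run of letters, not a binding site.

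HILPDA, which coats lipid droplets and slows their breakdown, was read at 54.7 to 76.9 CPM in WT samples and 145 to 201 CPM in CF samples, medians 70.8 and 176, with no overlap (log2 difference 1.36 ± 0.069, adjusted p = 6.02e-14). ERO1A, the oxidase that remakes disulfide bonds in the endoplasmic reticulum, was read at 1426 to 1818 CPM in WT samples and 2801 to 3147 CPM in CF samples, medians 1576 and 3034 (log2 difference 0.92 ± 0.056, adjusted p = 8.03e-13). VEGFA, the angiogenic growth factor, was read at 115 to 154 CPM in WT samples and 182 to 269.9 CPM in CF samples, medians 139 and 227 (log2 difference 0.72 ± 0.054, adjusted p = 4.02e-11). DDIT4, an inhibitor of mTORC1, was read at 205 to 305 CPM in WT samples and 376 to 464 CPM in CF samples, medians 278 and 445 (log2 difference 0.74 ± 0.065, adjusted p = 9.56e-10). In these 4 genes every CF sample lay above every WT sample. ADM (0.84 ± 0.065), ANKRD37 (0.84 ± 0.13) and the transcription repressor BHLHE41 (1.34 ± 0.24) were called higher as well. Both that fell, LOXL2 and BNIP3L, lie in a stretch of chromosome 8 whose genes were lower together (below). Outside the chromosome regions described below, 17 of 25 rose and 0 fell. HIF1A, which encodes the oxygen-regulated subunit, was at 0.14 ± 0.068 and did not pass the test (adjusted p = 0.108).

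Glycolysis and glucose transport genes moved the same way, and none fell. Of 31 tested, 17 rose and 0 fell, with a median of 0.17 log2. HK2, the hexokinase that starts glycolysis, was read at 311 to 481 CPM in WT samples and 502 to 862 CPM in CF samples, medians 392 and 668 (log2 difference 0.80 ± 0.061, adjusted p = 7.04e-11). ALDOC, an aldolase, was read at 7.86 to 10.9 CPM in WT samples and 14.2 to 22.4 CPM in CF samples, medians 8.73 and 18.2 (log2 difference 0.97 ± 0.11, adjusted p = 3.69e-08). The glucose transporter SLC2A3 was read at 1095 to 1400.2 CPM in WT samples and 1542 to 1904 CPM in CF samples, medians 1246 and 1673 (log2 difference 0.46 ± 0.051, adjusted p = 5.67e-08). GAPDH, often used as a reference gene, was read at 2787 to 3281 CPM in WT samples and 3598 to 4279 CPM in CF samples, medians 2949 and 4028 (log2 difference 0.43 ± 0.055, adjusted p = 6.38e-07). None of the 4 overlapped between the lines. The list of glucose-responsive arrestins and their regulators did not move this way. Of its 11 tested members 1 rose and 3 fell, with a median of -0.011 log2. The 1 that rose was ARRDC3, by 0.98 ± 0.077 (adjusted p = 2.27e-09). TXNIP, a sensor of glucose uptake, was at -0.27 ± 0.17 with overlapping groups (adjusted p = 0.256).

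**Figure D3:**
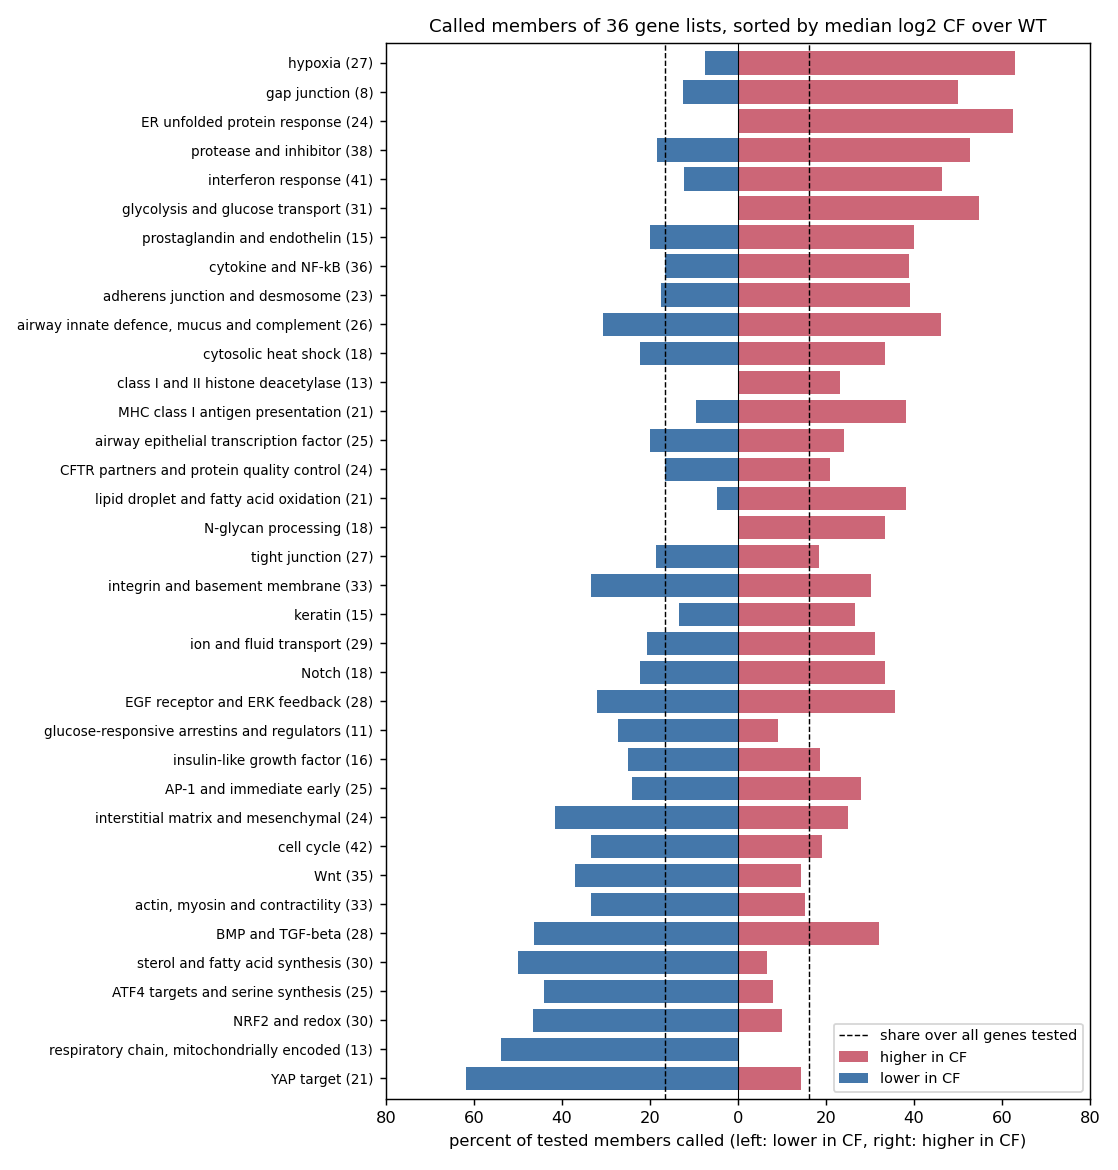
Percent of the tested members of 36 gene lists called higher (red, to the right) or lower (blue, to the left) in CF cells in normal glucose, sorted by the median log2 difference; numbers in brackets are tested members and dashed lines the 16.2% and 16.5% of all genes. The hypoxia list stands at the top and the YAP target list at the bottom.

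Chaperones and disulfide isomerases of the endoplasmic reticulum, the compartment where CFTR folds, were higher in CF cells. Of 24 tested genes of the unfolded protein response, 15 rose and 0 fell, with a median of 0.26 log2, and in high glucose 15 rose and 0 fell. PDIA4, a disulfide isomerase whose gene lies in a stretch of chromosome 7 with shared higher levels (below), was read at 758 to 1037 CPM in WT samples and 1680.4 to 1843 CPM in CF samples, medians 845 and 1757 (log2 difference 1.02 ± 0.063, adjusted p = 9.01e-13). PDIA3, which works with calnexin and calreticulin, was read at 806 to 961 CPM in WT samples and 1256 to 1412 CPM in CF samples, medians 855 and 1265 (log2 difference 0.58 ± 0.053, adjusted p = 1.78e-09). HSP90B1, the chaperone GRP94, was read at 1394 to 1608 CPM in WT samples and 2060.4 to 2374 CPM in CF samples, medians 1542 and 2274 (log2 difference 0.56 ± 0.054, adjusted p = 4.91e-09). DNAJB9, a cochaperone of BiP, was read at 26.8 to 38.6 CPM in WT samples and 44.3 to 54.5 CPM in CF samples, medians 29.5 and 49.2 (log2 difference 0.65 ± 0.073, adjusted p = 7.95e-08). For all 4 the lowest CF sample lay above the highest WT sample. HSPA5, which encodes BiP, rose by 0.26 ± 0.055 (adjusted p = 0.000531), while XBP1 (0.081 ± 0.058, adjusted p = 0.309) and DDIT3 (0.21 ± 0.094, adjusted p = 0.0913) did not pass the test, though DDIT3 did without WT sample 6 (0.28, adjusted p = 0.0166).

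N-glycan processing genes, which act on CFTR and other secretory proteins in the Golgi, showed 6 of 18 higher and 0 lower, or 5 and 4 with library totals alone. Beside MAN1A1, MGAT3, which adds the bisecting GlcNAc, was read at 22.5 to 30.2 CPM in WT samples and 60.9 to 76.6 CPM in CF samples, medians 26.5 and 67.1 (log2 difference 1.36 ± 0.069, adjusted p = 2.73e-14). MGAT5, a branching enzyme, rose by 0.43 ± 0.055 and ST3GAL4, a sialyltransferase, by 0.56 ± 0.08, each without overlap. The related mannosidases MAN1A2 (-0.097 ± 0.054) and MAN1C1 (-0.32 ± 0.23) did not pass the test.

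Cytosolic chaperones and the partners of CFTR held genes called in both directions. Of 18 heat shock genes 6 rose and 4 fell (3 and 5 with library totals alone, and 3 rose without CF sample 1 or CF sample 6), and of 24 CFTR partners and quality control genes 5 rose and 4 fell (4 and 5 with library totals alone). The shares of CFTR partners are near the 16.2% and 16.5% of all genes. STIP1, which links HSP70 to HSP90, was read at 232 to 258 CPM in WT samples and 172 to 201 CPM in CF samples, medians 239.8 and 186 (log2 difference -0.37 ± 0.049, adjusted p = 1.04e-06). SYVN1, an E3 ligase of endoplasmic reticulum degradation, was read at 63.8 to 89.2 CPM in WT samples and 43.4 to 61.7 CPM in CF samples, medians 73.1 and 50.8 (log2 difference -0.53 ± 0.06, adjusted p = 9.08e-08). RNF185, another such ligase that acts on DeltaF508 CFTR, was read at 78.4 to 84.3 CPM in WT samples and 92.3 to 115 CPM in CF samples, medians 80.6 and 101 (log2 difference 0.33 ± 0.052, adjusted p = 1.61e-05). The ligases moved in opposite directions, each without overlap. Of the scaffolds that anchor CFTR, SLC9A3R1 (NHERF1) rose by 0.25 ± 0.064 and SLC9A3R2 (NHERF2) fell by 0.42 ± 0.10 on the log2 scale, both with overlapping groups.

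Lipid genes split between storage and synthesis. Of 21 lipid droplet and fatty acid oxidation genes, 8 rose and 1 fell. PLIN2, a coat protein of lipid droplets, was read at 30.1 to 40.2 CPM in WT samples and 65.9 to 105 CPM in CF samples, medians 36.1 and 82.6 (log2 difference 1.27 ± 0.067, adjusted p = 5.13e-14). CPT1A, which admits fatty acids to mitochondria for oxidation, was the 1 gene that fell and was read at 66.2 to 82.6 CPM in WT samples and 41 to 44.9 CPM in CF samples, medians 72.7 and 43.2 (log2 difference -0.78 ± 0.058, adjusted p = 3.6e-11). CPT1A lies on chromosome 11 between 60 and 70 Mb, where genes were also often lower (below). Of 30 sterol and fatty acid synthesis genes, 15 fell and 2 rose. FADS1, a fatty acid desaturase, fell from a median of 273 CPM (255 to 303) in WT to a median of 211 CPM (185 to 247) in CF (log2 difference -0.39 ± 0.051, adjusted p = 8.47e-07), and the sterol carrier STARD4 was at -0.52 ± 0.071. FDFT1, the squalene synthase, had the largest fall of the list (-1.05 ± 0.063) and lies in the chromosome 8 stretch, while INSIG1, which restrains sterol synthesis, rose by 0.51 ± 0.056 and lies in the chromosome 7 stretch. Outside the regions 13 of 27 fell, among them FADS1, which lies in the same part of chromosome 11 as CPT1A.

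Genes of the NRF2 and redox list were more often lower than higher. It holds genes that NRF2 drives against oxidants, and NFE2L2 and KEAP1 besides. Of 30 tested, 14 fell and 3 rose, with a median of -0.19 log2. NQO1, a quinone reductase and standard NRF2 target, was read at 71.6 to 94.7 CPM in WT samples and 46 to 64.7 CPM in CF samples, medians 78.8 and 51.8 (log2 difference -0.58 ± 0.06, adjusted p = 1.46e-08). PIR, an iron-binding nuclear protein, was read at 22.8 to 31.3 CPM in WT samples and 10.5 to 13.9 CPM in CF samples, medians 24.2 and 12.6 (log2 difference -1.05 ± 0.078, adjusted p = 4.2e-11). Neither overlapped between the lines. GSR, glutathione reductase, fell by 1.06 ± 0.06 on the log2 scale and lies in the chromosome 8 stretch, and AKR1B1, the aldose reductase of the polyol pathway, rose by 0.91 ± 0.094 and lies in the chromosome 7 stretch. NFE2L2, which encodes NRF2, was at -0.023 ± 0.061 (adjusted p = 0.81).

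Genes of the ATF4 list, many of which serve amino acid supply, were also more often lower. SLC7A11, the cystine importer on both lists, had means of 59.7 ± 6.83 CPM in WT and 21.6 ± 6.9 CPM in CF (± SD) and the largest fall of either list (log2 difference -1.49 ± 0.18, adjusted p = 8.79e-05). Of 25 tested, 11 fell, and the 2 that rose, VEGFA and DDIT4, are also on the hypoxia list. PHGDH, the first enzyme of serine synthesis, was read at 161 to 179 CPM in WT samples and 98.1 to 152 CPM in CF samples, medians 176 and 121 (log2 difference -0.52 ± 0.078, adjusted p = 2.42e-05). CHAC1, which breaks down glutathione, was read at 12.2 to 16.9 CPM in WT samples and 4.4 to 11.5 CPM in CF samples, medians 14.6 and 7.37 (log2 difference -0.99 ± 0.12, adjusted p = 2.91e-07). Both lay lower in every CF sample than in any WT sample.

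Defence genes moved in both directions. Of 26 genes of innate defence, mucus and complement, 12 rose and 8 fell. SLPI, an inhibitor of neutrophil elastase secreted into the airway, was read at 37.8 to 65 CPM in WT samples and 80.3 to 140.2 CPM in CF samples, medians 50.9 and 100 (log2 difference 1.05 ± 0.067, adjusted p = 2.22e-12). Complement C3 was read at 1026 to 1279 CPM in WT samples and 1536 to 2084 CPM in CF samples, medians 1140.0 and 1762 (log2 difference 0.63 ± 0.052, adjusted p = 3.71e-10), and the iron-binding LCN2 at 96.2 to 108 CPM in WT samples and 138 to 165 CPM in CF samples, medians 103 and 146 (log2 difference 0.53 ± 0.051, adjusted p = 3.6e-09). The 2 subunits of calprotectin, an antimicrobial protein of neutrophils and stressed epithelium, rose by 1.94 ± 0.12 (S100A8) and 0.72 ± 0.07 (S100A9). MUC20, another membrane mucin, next to MUC4 on the chromosome, fell with it (-1.60 ± 0.26, adjusted p = 1.74e-05), while MUC1 (0.07 ± 0.076) and MUC16 (-0.05 ± 0.20) did not pass the test.

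Of 36 cytokine and NF-kB genes, 14 rose and 6 fell. Without WT sample 4 or 6 the number that rose was 8, without CF sample 6 it was 9, and without WT sample 2 the number that fell was 3. The chemokine CXCL5, which attracts neutrophils, was read at 12.1 to 21.4 CPM in WT samples and 23.3 to 29.6 CPM in CF samples, medians 17.1 and 27.4 (log2 difference 0.66 ± 0.10, adjusted p = 1.71e-05), and CXCL8 (interleukin 8), which does so too, at 95.4 to 182 CPM in WT samples and 157 to 359 CPM in CF samples, medians 122 and 227 (log2 difference 0.81 ± 0.23, adjusted p = 0.0247). CXCL8 overlapped between the lines and CXCL5 did not. The call of CXCL8 was lost with number as a block (adjusted p = 0.061) and without WT sample 4, 5 or 6 (0.75, 0.69 and 0.74, adjusted p = 0.0652, 0.0578 and 0.0639). CCL28, a mucosal chemokine, was read at 9.92 to 11.5 CPM in WT samples and 14.9 to 21.5 CPM in CF samples, medians 11.2 and 18 (log2 difference 0.74 ± 0.092, adjusted p = 3.95e-07). In high glucose 5 of the list were higher and 14 lower, and the difference between glucose levels was called for 4 members. CXCL8, at -0.089 in high glucose, was not among them (adjusted p of the difference = 0.199).

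Of 41 interferon-stimulated genes 19 rose and 5 fell, beside 16.2% and 16.5% of all genes. TMEM173, which encodes STING, the adaptor of cytosolic DNA sensing, was read at 9.45 to 12 CPM in WT samples and 22.7 to 32 CPM in CF samples, medians 10.6 and 28 (log2 difference 1.40 ± 0.085, adjusted p = 7.31e-13). OAS2, an RNA sensor enzyme, was read at 3.02 to 4.76 CPM in WT samples and 6.07 to 8.6 CPM in CF samples, medians 3.39 and 7.72 (log2 difference 1.04 ± 0.13, adjusted p = 6.23e-07), and IFI6 at 45 to 75 CPM in WT samples and 66.2 to 116 CPM in CF samples, medians 52.5 and 82.9 (log2 difference 0.58 ± 0.069, adjusted p = 1.84e-07). STING and OAS2 did not overlap between the lines, and IFI6 did. The number that fell was 3 without any 1 of WT samples 4 and 5 and CF samples 4 and 6. The transcription factor IRF7 (-0.33 ± 0.088) was called lower. Of 21 antigen presentation genes 8 rose and 2 fell, but 3 and 4 with library totals alone. Without WT sample 4 or 6 only 4 rose, and without WT sample 5 or CF sample 6 only 5. HLA-B was read at 1373 to 1933 CPM in WT samples and 1853 to 2285 CPM in CF samples, medians 1634 and 1912 (log2 difference 0.27 ± 0.062, adjusted p = 0.00127) with overlapping groups, and the peptide transporter TAP1 was at -0.22 ± 0.06.

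Of 38 proteases and protease inhibitors, 20 rose and 7 fell. TIMP3, a matrix-bound inhibitor of metalloproteinases, was read at 14 to 19.7 CPM in WT samples and 31.2 to 40 CPM in CF samples, medians 15.3 and 37.5 (log2 difference 1.20 ± 0.084, adjusted p = 1.07e-11). MMP2, a gelatinase, was read at 20.9 to 24.5 CPM in WT samples and 36.2 to 53 CPM in CF samples, medians 21.8 and 45.1 (log2 difference 0.99 ± 0.078, adjusted p = 1.1e-10), and SERPINA1, alpha-1 antitrypsin, had means of 70.9 ± 6.58 CPM in WT and 181 ± 50.4 CPM in CF (± SD, log2 difference 1.32 ± 0.16). All 3 lay higher in every CF sample than in any WT sample. PLAT, tissue plasminogen activator, was read at 21.4 to 24.9 CPM in WT samples and 5.27 to 8.26 CPM in CF samples, medians 23.7 and 7.3 (log2 difference -1.72 ± 0.097, adjusted p = 1.95e-13) and ADAM9 at 887 to 1015 CPM in WT samples and 576 to 632 CPM in CF samples, medians 967 and 606 (log2 difference -0.66 ± 0.046, adjusted p = 9.84e-12), and both lie in the chromosome 8 stretch. In prostaglandin synthesis PTGS1, the constitutive cyclooxygenase, rose with PTGS2, from a median of 3.78 CPM (3.36 to 4.81) in WT to a median of 17.1 CPM (11.3 to 18.4) in CF (log2 difference 2.02 ± 0.11, adjusted p = 1.55e-13). ALOX5, the 5-lipoxygenase of leukotriene synthesis, was read at 3.55 to 4.84 CPM in WT samples and 0.625 to 1.82 CPM in CF samples, medians 4.22 and 1.14 (log2 difference -1.88 ± 0.20, adjusted p = 2.07e-08), below WT in every CF sample.

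At cell junctions, which hold the epithelial barrier, single genes differed in either direction. Of 27 tight junction genes 5 rose and 5 fell. These shares are near the 16.2% and 16.5% of all genes. CLDN3, a sealing claudin, was read at 57.9 to 89.6 CPM in WT samples and 34.8 to 48.9 CPM in CF samples, medians 72 and 40 (log2 difference -0.83 ± 0.087, adjusted p = 1.7e-07). CLDN23 fell by 1.38 ± 0.07 on the log2 scale and lies in the chromosome 8 stretch. CLDN4 did not pass the test (0.10 ± 0.065), the scaffold TJP1 (ZO-1) was at -0.19 ± 0.055 (adjusted p = 0.00744). TJP1 was not called without the term for the number set (adjusted p = 0.122), by limma on FPKM with no filter (0.0572) or in samples 1 to 3 alone (0.407). OCLN (occludin) was at 0.13 ± 0.049, just inside the threshold (adjusted p = 0.0482). It lost its call without any 1 of the 6 WT samples or of CF samples 1, 5 and 6, with adjusted p-values from 0.0552 to 0.138. Likewise 3 tight junction genes rose, in place of 5, without any 1 of WT samples 2, 3, 4 and 6 and CF samples 1, 5 and 6. MPP5, a polarity scaffold, was read at 74.9 to 86.1 CPM in WT samples and 60.9 to 74.3 CPM in CF samples, medians 84.1 and 65.3 (log2 difference -0.31 ± 0.056, adjusted p = 7.61e-05). Of these genes CLDN3, CLDN23 and MPP5 did not overlap between the lines, and TJP1 and OCLN did.

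Of 23 adherens junction and desmosome genes 9 rose and 4 fell. CDH3, P-cadherin of basal cells, was read at 844 to 909 CPM in WT samples and 1135 to 1447 CPM in CF samples, medians 873 and 1256 (log2 difference 0.54 ± 0.056, adjusted p = 1.67e-08), and NECTIN4 at 84.1 to 97.5 CPM in WT samples and 116 to 159 CPM in CF samples, medians 91.9 and 138 (log2 difference 0.58 ± 0.053, adjusted p = 1.99e-09). NECTIN1, a related adhesion molecule, went the other way and was read at 24.8 to 32.5 CPM in WT samples and 15.8 to 20 CPM in CF samples, medians 29 and 17.2 (log2 difference -0.72 ± 0.075, adjusted p = 1.67e-08). Of 8 gap junction genes, whose channels pass small molecules between cells, 4 rose and 1 fell. GJB2 (connexin 26) was read at 31.9 to 39.7 CPM in WT samples and 61.2 to 78.5 CPM in CF samples, medians 36.4 and 70 (log2 difference 0.96 ± 0.07, adjusted p = 2.07e-11) and GJB5 at 21.3 to 32.4 CPM in WT samples and 40 to 51.4 CPM in CF samples, medians 25.6 and 45 (log2 difference 0.80 ± 0.082, adjusted p = 2.07e-08). PANX1, a channel that releases ATP, rose by 0.84 ± 0.055 and lies in a chromosome 11 stretch with shared higher levels.

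Keratins of basal and stressed epithelium moved in both directions. KRT17 was read at 422 to 469 CPM in WT samples and 620.0 to 991 CPM in CF samples, medians 438 and 815 (log2 difference 0.83 ± 0.083, adjusted p = 2.11e-07), KRT6A at 2.25 to 3.04 CPM in WT samples and 4.66 to 8.07 CPM in CF samples, medians 2.8 and 6.11 (log2 difference 1.22 ± 0.15, adjusted p = 2.3e-07) and KRT5 at 34.5 to 51.7 CPM in WT samples and 48 to 99.3 CPM in CF samples, medians 42.9 and 69.8 (log2 difference 0.70 ± 0.089, adjusted p = 3.37e-06). KRT14, the usual partner of KRT5, went down, from a median of 3.24 CPM (2.82 to 4.13) in WT to a median of 1.31 CPM (0.852 to 1.92) in CF (log2 difference -1.29 ± 0.19, adjusted p = 5.83e-06). KRT17, KRT6A and KRT14 did not overlap between the lines and KRT5 did. Of 15 keratins 4 rose and 2 fell, beside 16.2% and 16.5% of all genes, or 4 and 5 with library totals alone.

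Among 25 airway transcription factors 6 rose and 5 fell, or 5 and 8 with library totals alone. The shares of 6 and 5 are not far from the 16.2% and 16.5% of all genes. FOXQ1 was read at 5.4 to 7.32 CPM in WT samples and 13.2 to 16.8 CPM in CF samples, medians 6.45 and 16 (log2 difference 1.28 ± 0.099, adjusted p = 6.59e-11). FOXI1, which specifies the ionocyte, the airway cell type richest in CFTR, was read at 8.96 to 13.8 CPM in WT samples and 3.68 to 6.19 CPM in CF samples, medians 11.2 and 4.75 (log2 difference -1.24 ± 0.13, adjusted p = 1.41e-08). Neither gene overlapped between the lines. The ionocyte markers ASCL3, BSND and ATP6V1G3 were below 0.5 CPM in all 12 samples.

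Of 29 ion and fluid transport genes 9 rose and 6 fell. SCNN1A, which encodes the alpha chain of the sodium channel ENaC, was read at 59.9 to 75.9 CPM in WT samples and 74.4 to 90.7 CPM in CF samples, medians 66.4 and 87.6 (log2 difference 0.38 ± 0.063, adjusted p = 2.47e-05). The potassium channels KCNK1 and KCNK5 rose by 0.60 ± 0.075 and 0.58 ± 0.08, without overlap. SLC12A2, the basolateral cotransporter that loads cells with chloride, had means of 29.3 ± 2.11 CPM in WT and 21 ± 3.5 CPM in CF (± SD) and was called lower (log2 difference -0.49 ± 0.085, adjusted p = 5.77e-05).

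Genes of the YAP target list were mostly lower, with 13 of 21 lower, 3 higher and a median of -0.41 log2. YAP is a coactivator that responds to stretch and cell shape. Beside its targets the list holds YAP1 itself, the related WWTR1 and the partners TEAD1, TEAD4 and AMOTL1. In high glucose 15 were lower and 1 higher. CTGF (CCN2), a matrix protein, was read at 42 to 51.1 CPM in WT samples and 20.9 to 26.6 CPM in CF samples, medians 47.4 and 23.6 (log2 difference -0.99 ± 0.067, adjusted p = 4.89e-12), and CYR61 (CCN1) at 631 to 700.4 CPM in WT samples and 408 to 467 CPM in CF samples, medians 678 and 434 (log2 difference -0.62 ± 0.046, adjusted p = 2.75e-11). TGFB2, a ligand of the TGF-beta receptors, was read at 18.2 to 29.2 CPM in WT samples and 7.45 to 9.4 CPM in CF samples, medians 22.9 and 8.67 (log2 difference -1.44 ± 0.097, adjusted p = 5.46e-12). None of the 3 overlapped between the lines. YAP1 itself was at -0.04 ± 0.054 (adjusted p = 0.614). AMOTL1, a partner of YAP, rose by 0.63 ± 0.052 and lies in the chromosome 11 stretch of higher genes.

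Actin and myosin genes fell more often than they rose, 11 against 5 of 33. The share that rose is near the 16.2% of all genes. FSCN1, which bundles actin, was read at 91.1 to 98.8 CPM in WT samples and 40.3 to 52.3 CPM in CF samples, medians 94.4 and 47.6 (log2 difference -1.02 ± 0.062, adjusted p = 8.73e-13), and MYLK, myosin light chain kinase, at 46 to 62.8 CPM in WT samples and 25.2 to 33.9 CPM in CF samples, medians 52.5 and 30.1 (log2 difference -0.83 ± 0.064, adjusted p = 7.46e-11), both without overlap. The myosin light chains MYL12A and MYL12B fell by 0.57 and 0.52 on the log2 scale and lie in a stretch of chromosome 18 with shared lower levels.

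In the matrix, TGFBI, a secreted adhesion protein, rose from a median of 251 CPM (241 to 264) in WT to a median of 690.2 CPM (591 to 803) in CF (log2 difference 1.47 ± 0.062, adjusted p = 6.23e-16). THBS1, thrombospondin 1, was read at 1836 to 2469.5 CPM in WT samples and 938 to 1411 CPM in CF samples, medians 2213 and 1181 (log2 difference -0.94 ± 0.063, adjusted p = 5.6e-12), and COL12A1 at 2.02 to 5.97 CPM in WT samples and 0.486 to 0.781 CPM in CF samples, medians 5.19 and 0.628 (log2 difference -2.86 ± 0.23, adjusted p = 1.61e-10). All 3 were without overlap. The basement membrane collagens COL4A1 and COL4A2, a pair of neighbouring genes, fell by 0.67 and 0.48 on the log2 scale, while the hemidesmosome collagen COL17A1 rose by 0.69 ± 0.055, the laminin chain LAMA3 by 0.67 ± 0.062 and the integrin ITGA6 by 0.46 ± 0.052.

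In signalling, BMP6 was read at 19.3 to 24.7 CPM in WT samples and 50.4 to 58.8 CPM in CF samples, medians 21.5 and 56.2 (log2 difference 1.34 ± 0.066, adjusted p = 1.59e-14) and its target ID3 at 121 to 139 CPM in WT samples and 186 to 214 CPM in CF samples, medians 134 and 194 (log2 difference 0.58 ± 0.053, adjusted p = 1.97e-09), both higher in every CF sample. Of 28 BMP and TGF-beta genes 9 rose and 13 fell. Receptor NOTCH2 was read at 259.9 to 349 CPM in WT samples and 126 to 193 CPM in CF samples, medians 321 and 157 (log2 difference -1.0 ± 0.056, adjusted p = 1.55e-13) and the Notch ligand JAG1 at 9.98 to 13.7 CPM in WT samples and 20.8 to 25.2 CPM in CF samples, medians 11.2 and 23.1 (log2 difference 1.00 ± 0.082, adjusted p = 2.58e-10), moving in opposite directions without overlap. Of 35 Wnt genes 13 fell and 5 rose, the receptor ROR2 from a median of 44.1 CPM (39.6 to 46.3) in WT to a median of 28 CPM (22.6 to 29) in CF (log2 difference -0.70 ± 0.068, adjusted p = 6.6e-09) and the R-spondin receptor LGR4 the other way (0.78 ± 0.052). EREG, a ligand of the EGF receptor, was read at 41.3 to 48.8 CPM in WT samples and 18.4 to 28.8 CPM in CF samples, medians 43.2 and 24.3 (log2 difference -0.89 ± 0.086, adjusted p = 9.6e-09), and its sheddase ADAM17 rose by 0.40 ± 0.049.

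CCND1, the cyclin that drives entry into the cell cycle, was read at 84.7 to 102 CPM in WT samples and 37.3 to 49.6 CPM in CF samples, medians 89.6 and 39 (log2 difference -1.16 ± 0.062, adjusted p = 8.78e-14). The inhibitor CDKN1A (p21) was read at 245 to 279 CPM in WT samples and 304 to 341 CPM in CF samples, medians 258 and 323 (log2 difference 0.32 ± 0.05, adjusted p = 1.38e-05). The cyclin lay lower and the inhibitor higher in every CF sample. CCND1 lies on chromosome 11 between 60 and 70 Mb, where genes were also often lower (below). Of 42 cell cycle genes 14 fell and 8 rose, with a median of -0.057 log2. The share that rose is near the 16.2% of all genes. The number that rose was 5 without any 1 of WT samples 1, 4 and 5 and CF sample 4.

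Neighbouring genes on parts of 4 chromosomes differed together. Medians were taken over windows of 10 Mb with at least 20 tested genes, and adjoining windows whose median lay beyond 0.3 log2 in 1 direction were joined into 5 regions, so the values below describe the choice and are not tests. On chromosome 8 from 0 to 50 Mb the median of 192 genes was -0.90 log2, a ratio of 0.535, with 169 genes called lower and 2 higher. On chromosome 7 from 130 to 160 Mb the median of 166 genes was 0.57, with 120 higher and 4 lower. On chromosome 18 from 0 to 20 Mb 53 of 65 genes were lower (median -0.49). On chromosome 11, 77 of 110 genes from 70 to 90 Mb were lower (median -0.43), and 26 of 33 genes from 90 to 100 Mb were higher (median 0.495). The adjoining window from 60 to 70 Mb had a median of -0.27, short of the cut, and counts as outside the regions. Of its 233 genes 122 were called lower and 26 higher, and its median in high glucose was -0.21. FADS1, STIP1, SYVN1, CPT1A and CCND1 lie in this window.

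In each of the 12 samples the median of a region's genes, as log2 over their mean in WT normal glucose, kept to its line. For chromosome 8 it was -0.0111 to 0.00923 in the 6 WT samples and -0.863 to -0.817 in the 6 CF samples. For chromosome 7 it was -0.0581 to 0.0517 in WT and 0.473 to 0.568 in CF. These WT samples are their own reference, so their nearness to 0 follows from the measure. The higher block of chromosome 11 also shifted within WT cells. In the 3 WT samples of the series labelled not polarized, in normal glucose, its median was -0.413 to -0.297. Among the chromosome 8 genes SORBS3, an adaptor of cell adhesion, was read at 93.7 to 102 CPM in WT samples and 37.9 to 47.1 CPM in CF samples, medians 99.3 and 40.4 (log2 difference -1.23 ± 0.053, adjusted p = 9.87e-16), and VDAC3, a channel of the mitochondrial outer membrane, at 121 to 169 CPM in WT samples and 54.1 to 80.5 CPM in CF samples, medians 132 and 59.3 (log2 difference -1.11 ± 0.061, adjusted p = 1.24e-13). On chromosome 7 KDM7A, a histone demethylase, was read at 12.9 to 15.6 CPM in WT samples and 39.9 to 51.1 CPM in CF samples, medians 14.2 and 45.9 (log2 difference 1.68 ± 0.071, adjusted p = 5.94e-16), and MEST, an imprinted gene, at 91.5 to 122 CPM in WT samples and 312 to 383 CPM in CF samples, medians 106 and 339 (log2 difference 1.68 ± 0.067, adjusted p = 5.34e-16). PIWIL4 on chromosome 11 was read at 10.7 to 13.6 CPM in WT samples and 26.3 to 35.4 CPM in CF samples, medians 11.7 and 32.7 (log2 difference 1.42 ± 0.085, adjusted p = 6.43e-13). In high glucose, whose samples took no part in the choice, the medians were -0.93 for chromosome 8, 0.54 for chromosome 7, -0.50 for chromosome 18, and -0.43 and 0.44 for the lower and higher blocks of chromosome 11.

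**Figure D4:**
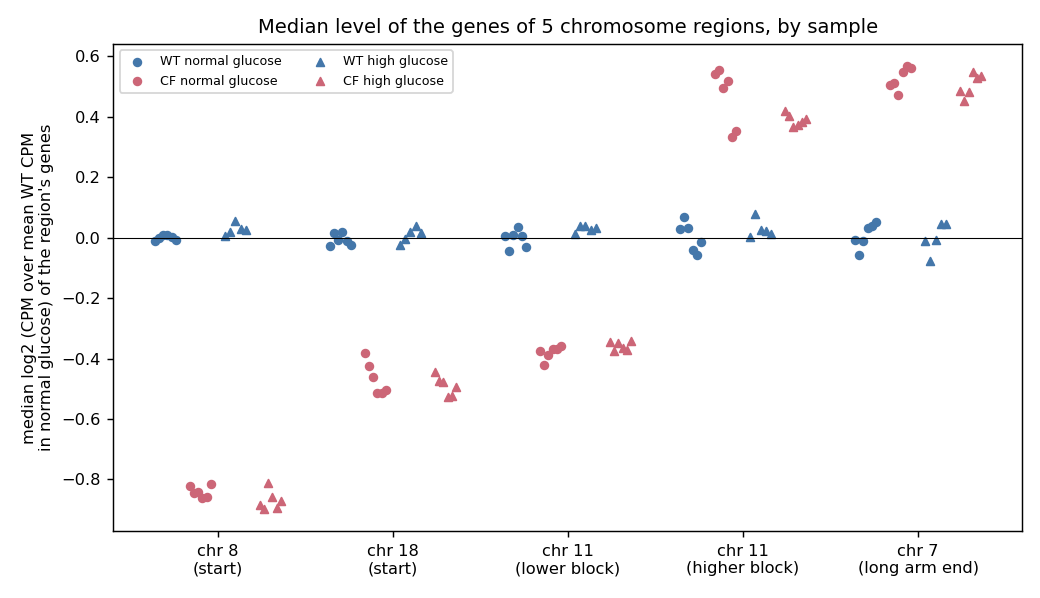
Median log2 ratio of the CPM of a region's genes to their mean in WT normal glucose (y axis) for 5 chromosome regions, by sample, in WT (blue) and CF (red) cells in normal (circles) and high (triangles) glucose. The WT samples shown lie near 0 in every region, and CF samples at either glucose level lie apart from them, lowest for the start of chromosome 8.

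The 5 regions held 566 of the 15394 genes tested, of which 455 were called (80.4%), against 30.8% of genes outside them. The genes outside include the chromosome 11 window from 60 to 70 Mb, of which 63.5% were called. The 5 regions account for 9.06% of the called genes and 108 of the 641 that differed at least 2-fold. CTSC, which the window edges place in the lower block of chromosome 11, was called higher (1.79 ± 0.13). That block adjoins the higher block at a window edge, and where levels change within windows was not looked for. TCIM on chromosome 8 was far below its neighbours. Only RNA was measured in these samples.

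The difference between the 2 glucose levels, tested in 1 fit of 23 samples, had its lowest p for PLIN2. Its log2 difference between the lines was 1.27 ± 0.067 in normal and 0.49 ± 0.066 in high glucose (difference 0.79 ± 0.11, adjusted p = 0.000585). HK2 was at 0.80 ± 0.061 and 0.17 ± 0.11 (difference 0.65 ± 0.14, adjusted p = 0.0336). CTGF lay lower in CF at both levels, less so in normal glucose (-0.99 against -1.61, difference 0.63 ± 0.098, adjusted p = 0.000807). HDAC9, a class IIa histone deacetylase, was called higher in normal (0.32) and lower in high glucose (-0.26; difference 0.59 ± 0.095, adjusted p = 0.000926). The same change of direction was seen in PHLDB2, FNIP1 and F3 (tissue factor), with differences of 0.42 ± 0.063, 0.54 ± 0.091 and 0.42 ± 0.072. FHL2 (0.94 and 0.41), APCDD1 (-1.32 and -0.85) and PPP1R3B (-0.34 and -0.85) kept their direction and differed in size. ESPN, an actin bundler, was not called in normal glucose (0.14) and was higher in high glucose (0.73).

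Between the number sets the line contrast differed for 249 genes (1.62%). Samples 1 to 3 alone called 2918 genes and samples 4 to 6 alone 4381, with 2038 called in the same direction in both, which is 70.5% and 46.9% of the genes each called among those tested in both. NID1, a basement membrane linker, was at -1.31 in samples 1 to 3 and -0.076 in samples 4 to 6. MMP9, the gelatinase of inflamed airways, was at -1.04 and 0.36. CTSC (1.36 and 2.20), SLC37A2 (0.70 and 2.06) and SLCO4A1 (0.11 and 1.03) lay above 0 in both sets and further above it in samples 4 to 6. Of the lists, the hypoxia genes counted 15 higher in samples 1 to 3 and 18 in samples 4 to 6, with 2 lower in each. The unfolded protein response genes counted 10 and 14 higher and 0 lower. Glycolysis genes counted 9 and 19 higher, cytokine and NF-kB genes 7 and 16 higher, and heat shock genes 0 and 5 higher. Sterol and fatty acid synthesis genes counted 5 and 17 lower, ATF4 genes 4 and 13 lower and genes of the YAP target list 10 and 12 lower. Apart from the hypoxia genes that fell, these counts above 0 were larger in samples 4 to 6, which also called more genes in all. Beside the genes said above to lose a call, CDH1, F3, FNIP1, HDAC9, HLA-B, HSPA5, PHLDB2, SLC9A3R2 and SLCO4A1 were not called in samples 1 to 3 alone, and IRF7, SLC9A3R1, TAP1 and NID1 not in samples 4 to 6 alone. PHLDB2, TAP1, NID1 and MT-CO1 were not called without the set term.

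Of the 13 protein-coding genes of mitochondrial DNA, 7 were called lower in CF, 0 higher, and the set difference was called for 7. The number called lower was 4 without WT sample 4 or any 1 of CF samples 4 to 6, and it was 1 in samples 1 to 3 alone and 11 in samples 4 to 6 alone. MT-CYB, the cytochrome b of complex III, was read at 612 to 1086 CPM in WT samples and 593 to 646 CPM in CF samples, medians 828 and 629 (log2 difference -0.40 ± 0.078, adjusted p = 0.000413), but at -0.18 in samples 1 to 3 and -0.64 in samples 4 to 6. MT-CO1 was at -0.048 and -0.45, and MT-ATP8 at -0.07 and -1.13. Of all 25 tested genes of mitochondrial DNA, RNA genes that encode no protein included, 9 were called lower and 3 higher. All genes of mitochondrial DNA together held 2.57 ± 0.201% (SD) of counts in WT and 2.52 ± 0.19% in CF in samples 1 to 3. In samples 4 to 6 they held 3.18 ± 0.371% and 2.52 ± 0.0883%. The highest shares were those of WT samples 4 to 6. In high glucose none of the 13 protein-coding genes was called.

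**Figure D5:**
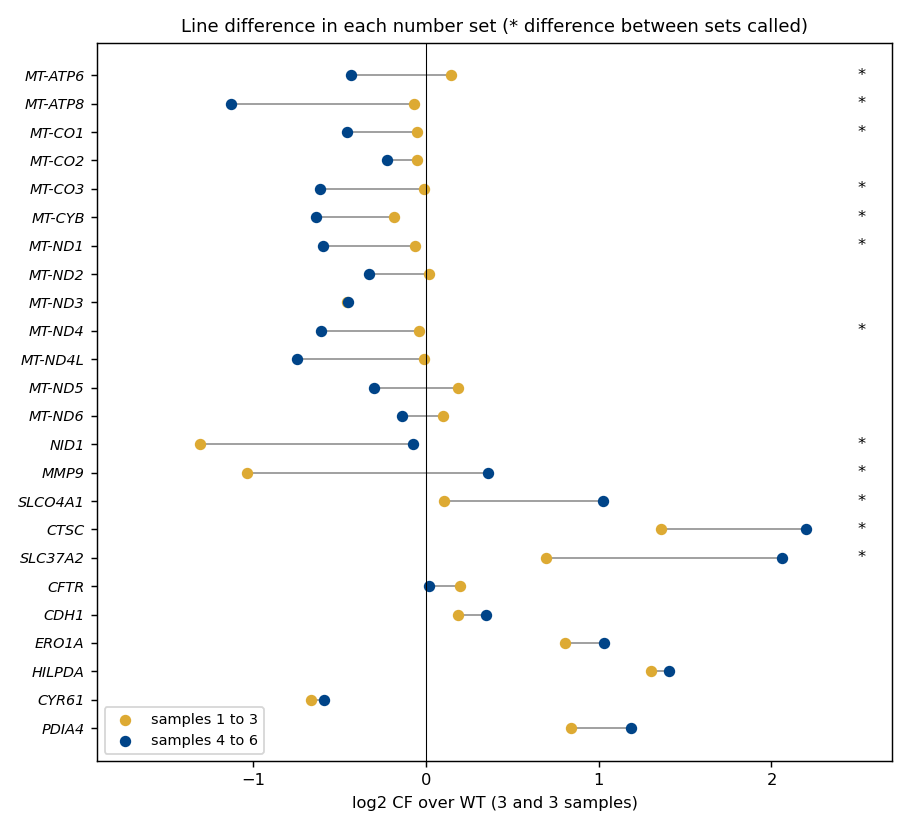
Log2 CF over WT in normal glucose from samples 1 to 3 (yellow) and samples 4 to 6 (dark blue), 3 and 3 samples each. Shown are the 13 protein-coding genes of mitochondrial DNA, 5 genes chosen by low p for the difference between the sets and 6 genes for comparison. Asterisks mark a called difference between the sets. CFTR, CDH1, ERO1A, HILPDA, CYR61 and PDIA4 had no called difference between the sets.

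The non-coding genes with the largest differences were also taken. AC004704.1 was read at 0.786 to 1.41 CPM in WT samples and 7.17 to 9.78 CPM in CF samples, medians 1.37 and 7.97 (log2 difference 2.73 ± 0.15, adjusted p = 1.85e-13), LINC01293 rose by 1.00 ± 0.10 and AC083843.2 by 0.92 ± 0.11. LINC01679 was read at 7.78 to 10.2 CPM in WT samples and 0.714 to 1.19 CPM in CF samples, medians 8.93 and 0.905 (log2 difference -3.27 ± 0.15, adjusted p = 5.47e-15), the metallothionein pseudogene MT1L was at -1.84 ± 0.17, and the zinc finger pseudogene ZNF542P, with no CF read, was at least 157-fold lower. Of 1576 long non-coding genes tested 17.7% were called, against 35.5% of 12883 protein-coding genes.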

How the data were processed

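RNA-seq values of 26 samples were deposited as whole read counts and FPKM per gene for 58735 genes, with sample names in the column headers (columns of no labelled sample numbered 0). Per the submitters' processing notes, reads were aligned to hg38 and HISAT2 was used; not given in the sources used here are the counting tool and its use of strand, and overlapping and antisense genes cannot be told apart. The deposited FPKM matched the authors' counts over gene length and library total up to a constant per library, from 0.945 to 1.07. FPKM served only in alternative tests.

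From the counts, edgeR 4.0.16 (R 4.3.3) was fitted to the 12 normal glucose samples with terms for line and number set (library numbers 1 to 3 against 4 to 6): TMM factors, a filter of 10 counts by group and 15 in total, quasi-likelihood test, Benjamini-Hochberg adjustment at 0.05. Standard errors are the absolute log2 difference over the square root of F. High glucose (11 samples) was fitted alike, and the difference of contrasts in 1 fit of 23. CPM use TMM factors of all 26 libraries. The 30 same-group pairs of libraries differed by 2.36 to 50.3 in chi-square per gene, and 0 were identical. Steps were tested on simulated data. Alternatives used limma 3.58.1, DESeq2 1.42.0, other scalings, filters, pseudocounts and left-out samples.

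The members and lists were chosen with earlier results of these data known, so lists are described by counts. Named genes are the 15 highest and 15 lowest log2 differences among called protein-coding genes with at least 5 CPM in a line and no overlap, up to 4 called members with the lowest p per list with at least 1 CPM, genes at most 0.1 CPM in 1 line, the 10 lowest p for the glucose difference and 5 for the set difference, 3 non-coding genes in each direction, up to 3 genes per chromosome window and a short list named in all cases. Chosen after their values were seen were KDR, CDH5, COL1A1, CAPS, S100A8, S100A9, MUC1, MUC16, MUC20, CXCL8, SLC7A11, SERPINA1, SLC12A2, ADM, ANKRD37, BHLHE41, BNIP3L, NDRG1, SLC6A6, HIF1A, HSPA5, XBP1, DDIT3, MAN1A2, MAN1C1, NFE2L2, IRF7, YAP1, the genes with no CF read and the zinc finger sets. Some genes that these rules name are not reported here.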

Additional observations from a re-analysis of the deposited data

Results flagged for a closer look

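Single samples that stood apart from the other 5 of their group were looked for in 392 groups, the 196 genes named here in each line, by the share of the group's range taken up by the gap to the nearest sample. There were 14 such samples (3.57%), where chance gives about 1 in 20. In WT sample 5 AC004704.1 was low at 0.786 CPM (others 1.18 to 1.41), while PTGS1 was high at 4.81 CPM (3.36 to 3.88). WT sample 2 was high for ARRDC3, at 257 CPM (176 to 205), for MAN1A1, at 0.297 CPM (0 to 0.0982), and for ZNF43, at 6.95 CPM (3.55 to 4.75). POU4F1 was high in WT sample 6, at 2.47 CPM (1.01 to 1.35), and ZNF334 in WT sample 3, at 1.63 CPM (0.772 to 1.02).

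Among CF samples, number 1 was low for DDIT4, at 376 CPM (others 440 to 464), and for IRF7, at 13.4 CPM (16.1 to 17.6). The same sample was high for HIF1A, at 128 CPM (99.4 to 109.5), and for PPP2R2B, at 0.199 CPM (0 to 0.0694). CF sample 4 was high for FLT4, at 0.833 CPM (0.132 to 0.354), and low for SCNN1A, at 74.4 CPM (87 to 90.7). HLA-B was high in CF sample 3, at 2285 CPM (1853 to 2006).

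For 21 named genes the log2 difference between CF and WT differed between normal and high glucose by the test in 23 samples. In each pair below the value in normal glucose comes first and the value in high glucose next, followed by their difference. The line contrast was more positive in normal glucose for PLIN2 (1.27 and 0.49, 0.79), HK2 (0.80 and 0.17, 0.65), CTGF (-0.99 and -1.61, 0.63), HDAC9 (0.32 and -0.26, 0.59), ROR2 (-0.70 and -1.26, 0.57), JAG1 (1.00 and 0.43, 0.57) and FHL2 (0.94 and 0.41, 0.55). It was so too for FNIP1 (0.29 and -0.24, 0.54), PPP1R3B (-0.34 and -0.85, 0.52), ERO1A (0.92 and 0.48, 0.45), LAMA3 (0.67 and 0.23, 0.45), KDM7A (1.68 and 1.25, 0.43), PHLDB2 (0.17 and -0.24, 0.42), F3 (0.26 and -0.15, 0.42), VEGFA (0.72 and 0.35, 0.38) and BNIP3L (-0.64 and -0.94, 0.30). More negative in normal glucose were TCIM (-6.59 and -5.05, -1.54), ESPN (0.14 and 0.73, -0.60), APCDD1 (-1.32 and -0.85, -0.47), NECTIN1 (-0.72 and -0.32, -0.40) and FSCN1 (-1.02 and -0.68, -0.33). TCIM is nearly unread in CF cells, so its values depend on the small count added in the fit.

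For 17 named genes the contrast differed between samples 4 to 6 and samples 1 to 3, given here in that order with the difference. More positive in samples 4 to 6 were MMP9 (0.36 and -1.04, 1.39), SLC37A2 (2.06 and 0.70, 1.35), KDR (1.90 and 0.69, 1.19), NID1 (-0.076 and -1.31, 1.22), SLCO4A1 (1.03 and 0.11, 0.91), SERPINA1 (1.76 and 0.85, 0.90), CTSC (2.20 and 1.36, 0.83), NDRG1 (1.24 and 0.66, 0.57), EREG (-0.61 and -1.19, 0.57), KRT17 (1.11 and 0.54, 0.56) and TGFBI (1.66 and 1.26, 0.38). More negative were MT-ATP8 (-1.13 and -0.070, -1.07), SLC7A11 (-2.04 and -1.0, -1.05), PHGDH (-0.80 and -0.26, -0.55), MT-CYB (-0.64 and -0.18, -0.46), STARD4 (-0.75 and -0.30, -0.45) and MT-CO1 (-0.45 and -0.048, -0.42). What the library numbers stand for was not tested.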

How the results depend on the processing

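The count of 5023 genes called in normal glucose was 3475 without the term for the number set, 5636 with all 23 glucose samples in 1 fit, 5148 by DESeq2, 4282 and 4280 by limma on FPKM with 1 or 0.1 added, and 2918 in samples 1 to 3 alone. Higher genes then numbered 1601 without the set term and 1358 in samples 1 to 3, and lower genes 1560 in samples 1 to 3. Differences of at least 2-fold, 641 here, numbered 1073 with no low-count filter and 120, 389 and 121 by limma on FPKM (1 added, 0.1 added, 1 added with no filter), where the added value shrinks low genes. Without the 566 genes of the 5 regions 4509 of 14828 were called, a choice made after seeing the data. Leaving out 1 sample gave 4540 to 5047 called, 2178 to 2471 higher, 2328 to 2587 lower and 660 to 695 at least 2-fold. High glucose called 3036 without the set term and 4574 to 5393 without 1 sample. The 146 glucose differences were 6 without the set term, 254 with no filter, 337 by DESeq2 and 61 to 326 without 1 sample: 82, 79, 87 and 61 without WT normal 3, WT normal 6, WT high 2 and WT high 3, and 326, 79, 76 and 90 without CF normal 3, 5 and 6 and CF high 6.

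With library number as a replicate block 4549 genes were called, of which 4508 were among the 5023, and 73 glucose differences. Same-numbered samples correlated at 0.0799 to 0.342 in their deviations from group means, with a mean of 0.193. For the other samples of the same set the mean was 0.194. For 4 of 6 numbers the own correlation lay above the mean of those others. With set means removed the mean for same-numbered samples was -0.0145, so the numbers were not taken as pairs. Of 196 named genes 179 were called, and 169 of the 196 stayed on their side of the threshold in every alternative tried; of 5036 gene values 63 lost and 8 gained a call. MMP9 (0.36) and MUC16 (0.35), which lay below 0 and were not called over all samples, were called higher in samples 4 to 6 alone. A further 37 values of 10 genes also changed sign, between -0.16 and 0.10, with no call in either fit. The cause of these changes was not tested. Depth (14658319 to 20413839 counts) limits genes of low level, and a gene with no CF read is known only to a floor of 3 reads over the group.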
